A study of Mus musculus with 27 samples.

Results

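Imprinted growth genes are described here in mouse HSCs (hepatic stellate cells, which store retinoids and lie beside the liver sinusoids) through acute and chronic injury. The group consisted of 10 genes chosen by name (H19, Igf2, Meg3, Dlk1, Rian, Peg3, Plagl1, Mest, Cdkn1c and Grb10) out of 53379 genes in the count table and matched by Ensembl ID. Bulk RNA-seq covered 27 libraries, each of HSCs that were sorted from male Balb/c livers by ultraviolet fluorescence and not cultured, and per the study each repeat was an individual experiment. Healthy mice, 10 to 12 weeks old, were not injected (n = 4 libraries). Acute injury was 1 intraperitoneal injection of carbon tetrachloride (CCl4), a hepatocyte toxin, at 0.5 µL per g of body weight in mineral oil, given to mice of 10 to 12 weeks, with HSCs of 3 libraries taken after 24 h and of 4 each after 72 h and 7 d. Chronic injury was 8 such injections over 4 weeks in mice of 8 to 10 weeks, with HSCs taken 24 h, 72 h or 14 d after the last one (n = 4 each). No group received mineral oil alone, so that the oil and CCl4 cannot be told apart, and the chronic mice also differed in stated age from the healthy ones. The age of the chronic mice is stated for injection and not for sampling, which came after the 4-week course. Isolation by retinoid fluorescence limits what is seen to cells that still held retinoid.

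An imprinted gene is transcribed mainly from the copy inherited from 1 parent. The copies from each parent differ in DNA methylation or chromatin marks set in the germ line. Many imprinted genes act on fetal and early postnatal growth, paternally expressed ones often promoting it and maternally expressed ones often restraining it, and the transcripts of several fall after birth in the liver. Of the 10 genes, 5 are known as maternally expressed (H19, Meg3, Rian, Cdkn1c and, in most tissues, Grb10) and 5 as paternally expressed (Igf2, Dlk1, Peg3, Plagl1 and Mest). The counts do not separate the parental copies, so nothing here measures imprinting itself.

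The genes lie in a few imprinted regions of the GRCm38 genome. H19, a long noncoding RNA (chr7:142575529-142578143), and Igf2, the gene of insulin-like growth factor 2 (chr7:142650766-142666816), are 72.6 kb apart on the minus strand and share an imprinting control region. Cdkn1c, which encodes a cyclin-dependent kinase inhibitor that restrains proliferation (chr7:143458339-143461050), lies 792 kb further along. Dlk1, which encodes a membrane-bound and shed protein with epidermal growth factor repeats (chr12:109452823-109463336), lies 77.7 kb before the noncoding RNA Meg3 (chr12:109541001-109571726), and Rian, a noncoding host of small nucleolar RNAs (chr12:109603940-109661716), begins 32.2 kb after Meg3. Peg3 (chr7:6703892-6730431) and Plagl1 (chr10:13060504-13131694) encode zinc finger transcription factors. Mest (chr6:30723547-30748465) encodes an enzyme of the alpha/beta hydrolase fold, and Grb10 (chr11:11930508-12038683) an adaptor that dampens insulin receptor signalling.

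H19, Igf2, Meg3, Rian and Mest carry microRNA genes inside their transcription units, and these short products are part of what the host genes make. Those of Igf2 (1 gene), Meg3 (2) and Rian (3) are not shown. The mature microRNAs of Mir675, within an exon of H19, and of Mir335, in an intron of Mest, are shown from RefSeq (GRCm38.p6), with the seed (bases 2 to 8, the part that pairs with targets) in capitals.
mmu-miR-675-3p: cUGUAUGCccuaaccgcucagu
mmu-miR-675-5p: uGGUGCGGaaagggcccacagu
mmu-miR-335-5p: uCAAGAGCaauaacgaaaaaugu
mmu-miR-335-3p: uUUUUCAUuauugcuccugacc
No pair of these 4 shared a seed. RNA-seq of this kind does not measure mature microRNAs. Reads on the Mir675 gene came to 6 in all 27 libraries, 4 of them in acute 7 d replicate 1, and reads on Mir335 came to 4.

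The promoters of the transcription factor genes Plagl1 and Peg3, whose levels moved in several comparisons reported here, were searched for letters on both strands and are shown from RefSeq on the strand of the gene, with matches in capitals. The letters were GGGGCCCC, part of a GC-rich element described for the PLAGL1 protein, found in 1.07% of 32817 mouse promoters of this length, and GGGCGG (a GC box), found in 35.6% of them. These motifs can overlap, and a match is only a description of the sequence.
Plagl1 promoter, chr10:13090582-13090881, plus strand: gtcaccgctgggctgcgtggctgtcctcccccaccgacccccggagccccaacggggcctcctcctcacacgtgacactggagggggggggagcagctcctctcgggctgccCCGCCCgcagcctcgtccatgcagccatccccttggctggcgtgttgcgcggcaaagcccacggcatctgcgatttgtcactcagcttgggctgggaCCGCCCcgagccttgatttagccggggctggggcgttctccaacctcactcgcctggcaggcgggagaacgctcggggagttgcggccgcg
Peg3 promoter, chr7:6730370-6730669, minus strand: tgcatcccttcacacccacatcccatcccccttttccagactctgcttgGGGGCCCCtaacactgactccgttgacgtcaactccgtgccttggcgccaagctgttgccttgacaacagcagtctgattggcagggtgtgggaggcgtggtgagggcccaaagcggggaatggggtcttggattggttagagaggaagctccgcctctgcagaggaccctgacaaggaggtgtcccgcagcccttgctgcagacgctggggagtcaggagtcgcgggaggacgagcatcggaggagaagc
The Plagl1 window held 2 GC boxes and no GGGGCCCC, and the Peg3 window held 1 GGGGCCCC and no GC box. The Plagl1 window had 70.7% G and C and the Peg3 window 61.3%, against a median of 52.7% over all promoters.

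Libraries held between 6.31 M and 13.1 M counts. Depth was lower (under 9 M) in 8 of them, namely the whole chronic 14 d group and the libraries numbered 1 and 2 in the other chronic groups. Values are CPM (counts per 1000000 of the total after scaling for composition), as mean ± SD. The defining HSC markers Lrat, Reln, Des, Pdgfrb, Hgf and Dcn were found in every group (Lrat between 664 and 2627 CPM in single libraries). The summed level of 10 HSC markers had a median of 42783 CPM in healthy libraries and medians from 16443 CPM (acute 72 h) to 33731 CPM (acute 24 h) in the injury groups. In bulk RNA, fewer cells of a type and less RNA per cell cannot be told apart.

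Per kb of exon, Grb10 had the highest mean level over the 27 libraries (26.8 CPM per kb), followed by Cdkn1c (21.7), Mest (14.1), Plagl1 (11.2) and Peg3 (4.03). Meg3 (0.600 CPM per kb), Rian (0.158), Dlk1 (0.119), H19 (0.0898) and Igf2 (0.0650) were low. A filter on low counts was passed by 18758 genes and by 8 of the 10, all but H19 and Igf2. In the test over all 7 groups (edgeR quasi-likelihood F test, Benjamini-Hochberg adjusted p), Plagl1 (2.0e-07), Peg3 (1.3e-06), Cdkn1c (1.3e-05), Mest (1.6e-05), Grb10 (2.7e-05), Meg3 (0.0379) and Dlk1 (0.0409) passed, while Rian did not (0.103). That is 7 of 8 tested, where 56.0% of all genes passed. Dlk1, 1 of these 7, passed the filter on low counts only through injury libraries.

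**Figure D1:**
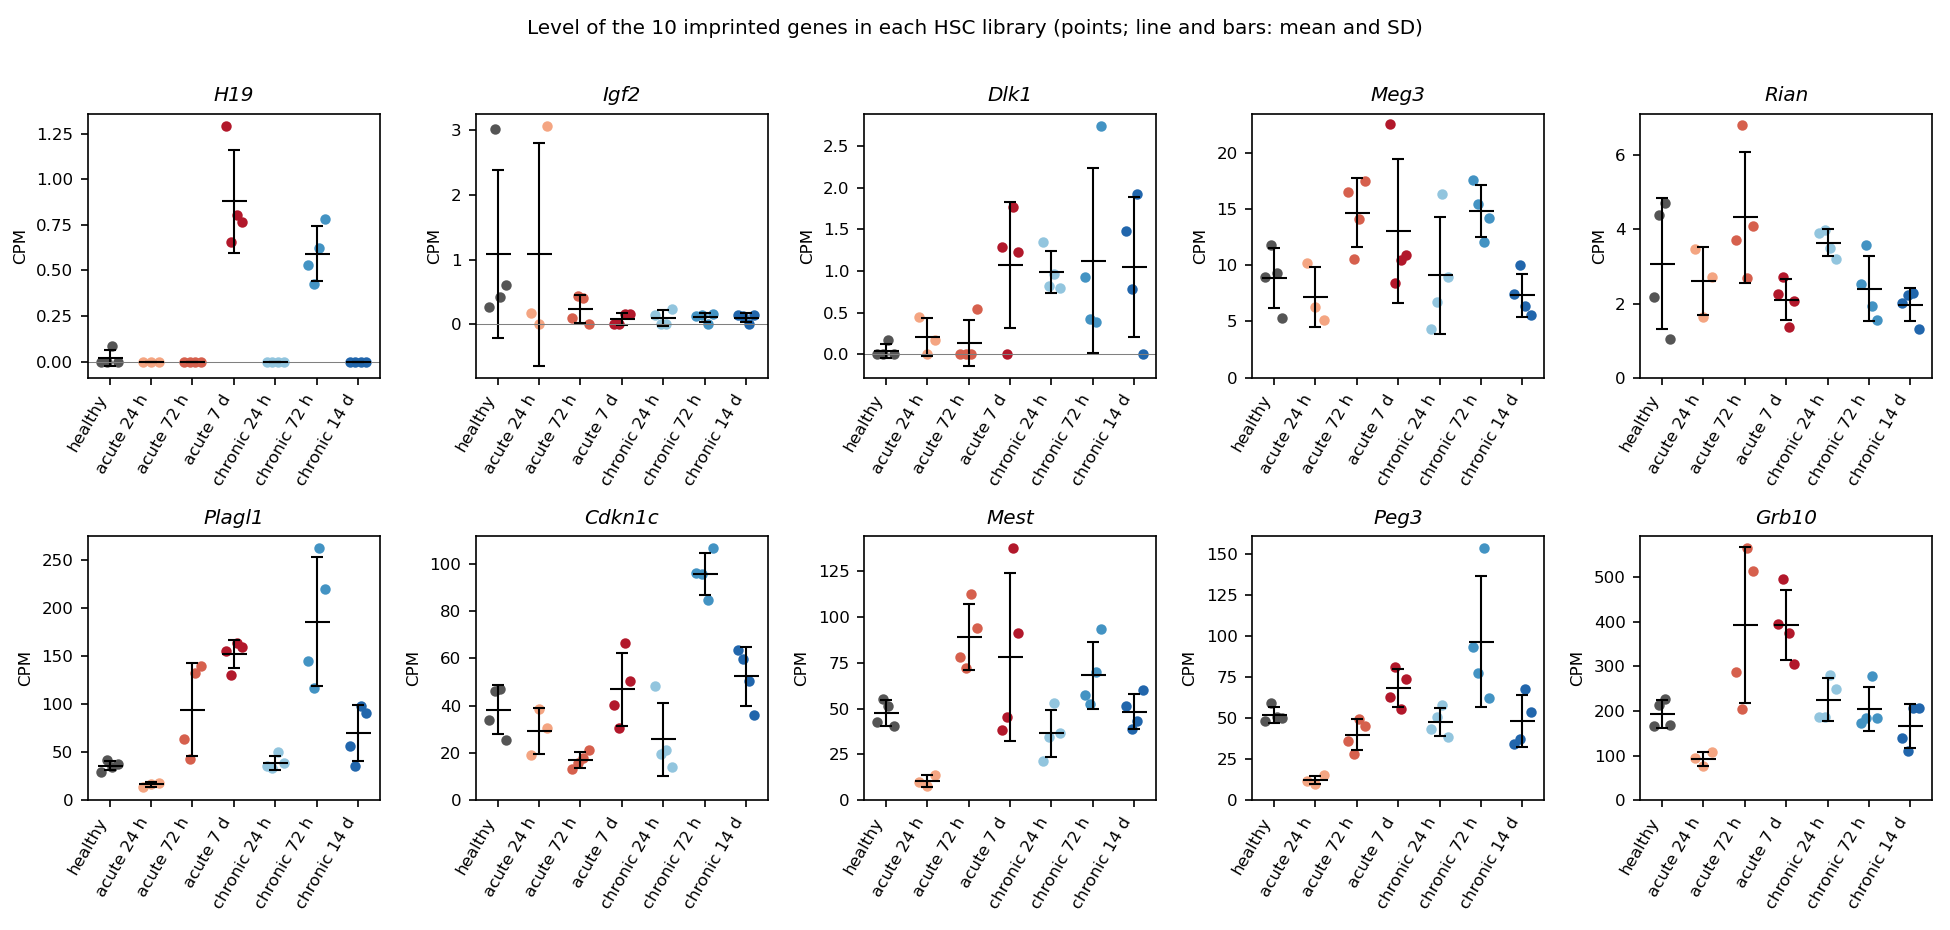
Level in CPM (vertical axes, 1 scale per gene) of each of the 10 imprinted genes in every library (points) of the 7 groups, with the mean (line) and SD (bars), which for low genes reach below 0. H19 had counts in acute 7 d and chronic 72 h libraries and in 1 healthy library, and the 4 chronic 72 h libraries held the highest levels of Cdkn1c (84.8 to 107 CPM).

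H19, which is abundant in fetal liver and low after birth, was detected almost only in 2 groups. The acute 7 d libraries held 16, 8, 10 and 10 reads, and the chronic 72 h libraries 4, 3, 8 and 10. The other 19 libraries held 1 read, in healthy replicate 3, so that 69 of 70 reads came from these 2 groups. Both lay above every library of the other 5 groups and overlapped with each other. The mean was 0.879 ± 0.282 CPM (n = 4) in acute 7 d and 0.591 ± 0.150 CPM (n = 4) in chronic 72 h HSCs. A permutation test over the 7 groups gave p = 1e-05, the smallest that 100000 resamples can give. Pairs of groups gave an exact permutation p of 0.0286, two-sided, for acute 7 d and for chronic 72 h against healthy, the smallest p that 4 against 4 libraries allow, and 0.0743 after adjustment over 13 comparisons. In edgeR without the filter, H19 was higher in acute 7 d than healthy (adjusted p = 0.00768) and in chronic 72 h than healthy (adjusted p = 0.0199), where 4.27% and 3.62% of all genes were called higher. It was also higher in acute 7 d than at acute 24 h (adjusted p = 0.00324, 8.24% of all genes called higher) or acute 72 h (0.00452, 2.24%) and in chronic 72 h than at chronic 24 h (0.0102, 2.07%), while the fall to chronic 14 d did not pass (0.0780).

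Against groups with no read, H19 folds are lower bounds, set at 3 reads over the group. The reads of the higher group enter as observed, so these bounds leave out the counting error of that group. Acute 7 d HSCs had at least 10.0-fold more H19 than acute 24 h and at least 14.1-fold more than acute 72 h HSCs. Chronic 72 h HSCs had at least 7.86-fold more than chronic 24 h and at least 6.26-fold more than chronic 14 d HSCs. The group at 14 d was sequenced at lower depth. Its 3-read floor of 0.0995 CPM is pooled over the group, and the floor of a single library is higher. The part of depth in the absence of H19 reads there was not tested. Against healthy, with 1 read, the ratio was 39.3 (95% interval 6.70 to 1587) for acute 7 d and 27.9 (4.56 to 1144) for chronic 72 h. These intervals cover counting error only.

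Markers of other cell types moved between groups too. The cholangiocyte list (6 genes) summed to 760 to 4793 CPM in acute 7 d, 256 to 843 in chronic 72 h, 560 to 1296 in chronic 24 h and 55.8 to 103 in healthy libraries. The mesothelial and portal fibroblast list (10 genes) summed to 199 to 329 CPM in acute 7 d, 175 to 331 in chronic 72 h, 334 to 446 in chronic 24 h and 29.7 to 52.5 in healthy libraries. The macrophage list (10 genes) summed to 704 to 2995 CPM in acute 7 d, 533 to 1816 in chronic 72 h, 305 to 1601 in chronic 24 h and 153 to 605 in healthy libraries, and the hepatocyte list (10 genes) to 1579 to 2500, 1907 to 3533, 542 to 1931 and 459 to 2780. Chronic 24 h libraries had higher mesothelial and portal fibroblast sums than chronic 72 h libraries and an overlapping range on the cholangiocyte list. Their medians were lower on the hepatocyte (982 against 2649 CPM) and macrophage lists (917 against 1096 CPM). Single markers could go against the sum of their list. Wt1 had a median of 65.9 CPM at chronic 24 h and 93.5 CPM at chronic 72 h. For Upk3b these were 2.01 and 5.50 CPM and for Krt19 1.86 and 2.90 CPM, while Msln had a median of 0 in both. Sinusoidal endothelial markers (10 genes) summed to 254 to 735 CPM in acute 7 d and 210 to 335 CPM in chronic 72 h against 168 to 560 CPM in healthy libraries, and markers of neutrophils, T and B cells (8 genes) to at most 81.3 CPM in any library. At acute 24 h the sums were 90.9 to 278 CPM for the hepatocyte, 77.4 to 105 for the endothelial, 145 to 196 for the macrophage, 87.6 to 104 for the cholangiocyte and 28.6 to 63.9 CPM for the mesothelial and portal fibroblast list, so that hepatocyte and endothelial markers lay below all healthy libraries there. Of the defining markers, Msln was at 0 in every acute 24 h and acute 72 h library. The part of these cells in the levels of the imprinted genes was not tested.

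Igf2, the fetal growth factor that shares its control region with H19, was close to the limit of detection. Healthy libraries held 3, 31, 5 and 7 reads, acute 24 h libraries 2, 0 and 35, and no later library more than 5. Replicate 2 of healthy and replicate 3 of acute 24 h thus carried most of the 109 reads. Over the 7 groups the permutation p was 0.0980, and without the filter the edgeR adjusted p was 0.0435, where 25.6% of all genes passed. All 4 healthy libraries lay above all libraries of acute 7 d, chronic 24 h, chronic 72 h and chronic 14 d (exact permutation p = 0.0286, two-sided, in each, adjusted p = 0.0929). Without the filter edgeR gave adjusted p values from 0.0911 to 0.259 for these 4 comparisons. Igf2 shares exons with Gm49394 on the same strand (341 reads), so its reads may have been split between both genes.

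In the Dlk1, Meg3 and Rian region, Dlk1 was detected mainly after later or repeated injury. Dlk1, known as an inhibitor of adipocyte differentiation and as a marker of fetal liver progenitors, had 2 reads in the 4 healthy libraries together. It had 16, 0, 22 and 16 reads in acute 7 d, 9, 6, 11 and 10 in chronic 24 h, 7, 3, 5 and 35 in chronic 72 h and 11, 6, 16 and 0 in chronic 14 d libraries. Acute 24 h libraries had 5, 0 and 2 reads and acute 72 h libraries 0, 0, 0 and 7. Chronic 24 h and chronic 72 h lay above all healthy libraries, while the other 4 groups, acute 7 d and chronic 14 d among them, overlapped with healthy through libraries at 0. The ratio to healthy was 24.1 (95% interval 6.36 to 204) for acute 7 d, 21.3 (5.47 to 182) for chronic 24 h, 27.9 (7.32 to 236) for chronic 72 h and 24.5 (6.26 to 211) for chronic 14 d. The edgeR adjusted p was 0.0294, 0.0286 and 0.0305 for the first 3, which were called, and 0.0635 for chronic 14 d, which was not. No healthy library held more than 0.168 CPM, so that Dlk1 passed the filter on low counts only through injury libraries. These tests are thus of a gene that was kept because of the groups where it was high. All 3 calls were lost without healthy replicate 1, 2 or 4, at log2 fold changes from 3.80 to 4.06, and also when acute 7 d replicate 1 or 3 was left out for acute 7 d (4.18 and 3.93) or chronic 72 h replicate 4 for chronic 72 h (3.39). With the libraries of higher depth alone the adjusted p was 0.0541, 0.0905 and 0.0589.

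Meg3, a noncoding RNA often described as growth-restraining, differed between the 7 groups, with means of 14.8 ± 2.31 CPM in chronic 72 h, 14.7 ± 3.09 in acute 72 h and 13.1 ± 6.40 in acute 7 d against 8.84 ± 2.68 in healthy and 7.19 ± 2.70 in acute 24 h HSCs. The chronic 72 h libraries held 17.6, 15.4, 12.0 and 14.2 CPM, all above the healthy ones (8.96, 11.8, 9.34 and 5.28 CPM). No single comparison of Meg3 passed, and the adjusted p against healthy was 0.141 for chronic 72 h and 0.139 for acute 72 h. Rian, from the same strand and region, ranged from 1.97 ± 0.444 CPM in chronic 14 d to 4.33 ± 1.77 in acute 72 h HSCs, and its 13 adjusted p values in edgeR were all above 0.05. Among the 3 genes of this region, the lowest group mean lay in healthy for Dlk1, in acute 24 h for Meg3 and in chronic 14 d HSCs for Rian.

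Plagl1, a transcription factor known to slow the cell cycle and to act on other imprinted genes, was called in more of the comparisons than any other of the 8 tested genes. It held 29.5, 41.5, 34.9 and 38.1 CPM in healthy and 13.8, 17.3 and 17.9 CPM in acute 24 h libraries. It then reached 63.6, 42.5, 132 and 139 CPM in acute 72 h and 155, 131, 163 and 159 CPM in acute 7 d libraries. After repeated injury it held 35.0, 33.5, 49.7 and 38.4 CPM at 24 h, 145, 117, 262 and 220 CPM at 72 h and 56.1, 35.8, 97.8 and 91.0 CPM at 14 d. Only the chronic 24 h and chronic 14 d libraries overlapped with healthy.

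Against healthy, the log2 fold change of Plagl1 was -1.14 ± 0.36 (SE, edgeR adjusted p = 0.0165) in acute 24 h, 1.39 ± 0.33 (0.00329) in acute 72 h, 2.08 ± 0.33 (7.8e-05) in acute 7 d and 2.37 ± 0.34 (2.3e-05) in chronic 72 h HSCs. The call at acute 24 h was lost without acute 24 h replicate 1, at -1.03. In chronic 14 d HSCs it was 0.96 ± 0.32 (adjusted p = 0.0658). In acute 72 h the libraries numbered 3 and 4 lay above those numbered 1 and 2 (means of 136 and 53.0 CPM). They did so in acute 7 d (161 and 143 CPM) and chronic 14 d (94.4 and 45.9 CPM) too, but not in healthy. The same held in chronic 24 h (44.0 and 34.2 CPM) and chronic 72 h (241 and 131 CPM), where 1 and 2 were also the libraries of lower depth. Mest showed this order in all but healthy and chronic 14 d. Grb10 showed it in acute 72 h (540 and 246 CPM), chronic 24 h and chronic 14 d, and the reverse in acute 7 d (340 and 446 CPM). The cause of this order was not tested.

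Cdkn1c, whose protein inhibits G1 cyclin-dependent kinases, was lowest at acute 72 h and highest at chronic 72 h. It held 33.9, 46.2, 47.2 and 25.6 CPM in healthy libraries, 13.4, 15.7, 17.8 and 21.3 CPM at acute 72 h and 95.9, 95.8, 84.8 and 107 CPM at chronic 72 h. The acute 72 h libraries all lay under the healthy ones and the chronic 72 h libraries all above them and above every other library of the series. The log2 fold change against healthy was -1.17 ± 0.32 (edgeR adjusted p = 0.00955) at acute 72 h and 1.33 ± 0.31 (0.00396) at chronic 72 h. Acute 24 h (29.3 ± 9.78 CPM), acute 7 d (46.9 ± 15.4), chronic 24 h (25.7 ± 15.3) and chronic 14 d HSCs (52.4 ± 12.4) did not pass against healthy.

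Cell cycle genes were listed beside Cdkn1c. Of 10 such genes (among them Mki67, Top2a and Cdk1), all 10 rose at acute 72 h (median log2 fold change 4.24, 8.23% of all genes called higher) and 7 at acute 7 d (2.27, 9.23%). At acute 24 h 2 fell (Mki67 and Top2a, median of the 10 -0.62, 12.5% of all genes called lower) and at chronic 24 h 2 fell (Ccnb1 and Ccnb2, -0.83, 8.11%). None was called by edgeR at chronic 72 h (0.69) or chronic 14 d (-0.70) against healthy, where 2 (Ccnb2 and Cdk1, both higher) and 3 (Mki67, Top2a and Cdk1, all lower) had an unadjusted p below 0.05. From chronic 24 h to 72 h, Ccnb1 and Ccnb2 rose, as did Cdkn1c (4.72% of all genes called higher). At chronic 14 d against chronic 24 h Ccnb2 was higher (6.65% of all genes called higher) and Cdk1 lower (1147 of 18758 genes called lower). No test linked Cdkn1c to these genes.

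Mest, a paternally expressed gene used as a marker of growth in fat and other tissues, fell at 24 h after a single injection. It held 42.5, 55.4, 51.3 and 40.5 CPM in healthy and 10.1, 7.54 and 13.6 CPM in acute 24 h libraries, with no overlap (log2 fold change -2.18 ± 0.37, edgeR adjusted p = 8.2e-05). At acute 72 h it held 77.9, 72.2, 112 and 93.9 CPM, above all healthy libraries (0.91 ± 0.32, adjusted p = 0.0428, under 2-fold and not called). The acute 7 d libraries split into 38.2 and 45.6 against 137 and 91.5 CPM. The chronic groups, with means of 36.4 ± 12.9, 68.2 ± 18.2 and 48.3 ± 9.46 CPM at 24 h, 72 h and 14 d, overlapped with healthy. An exon of Mest overlaps Copg2 on the opposite strand (3556 reads), itself lower at acute 24 h (log2 fold change -1.52 ± 0.41, adjusted p = 0.00583), and the strand setting of the counting is not given in the sources used here.

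Peg3, a zinc finger gene known for its effects on growth and maternal behaviour, fell with Mest at acute 24 h. It held 48.4, 59.2, 51.0 and 50.1 CPM in healthy and 11.7, 9.88 and 15.2 CPM in acute 24 h libraries (log2 fold change -2.09 ± 0.29, edgeR adjusted p = 7.3e-06). In chronic 72 h libraries it held 93.6, 77.6, 154 and 62.3 CPM, all above healthy (0.89 ± 0.25, adjusted p = 0.0127, under 2-fold and not called). Replicate 3 was the highest of these 4. The other groups had means from 40.0 to 68.5 CPM and did not pass against healthy.

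Grb10, the gene of an inhibitory adaptor of the insulin and insulin-like growth factor 1 receptors, moved down and then up after a single injection. It held 166, 213, 227 and 168 CPM in healthy, 94.1, 76.0 and 108 CPM in acute 24 h, 288, 204, 566 and 514 CPM in acute 72 h and 396, 496, 376 and 305 CPM in acute 7 d libraries. Acute 72 h replicate 2 lay within the healthy range, while acute 24 h and acute 7 d did not overlap with healthy. The log2 fold change was -1.06 ± 0.30 (edgeR adjusted p = 0.00779), 1.02 ± 0.27 (0.00845) and 1.02 ± 0.27 (0.00805). All 3 lie near the 2-fold limit and fell under it in some settings, at 0.77 without acute 72 h replicate 3 for acute 72 h, 0.89 without acute 7 d replicate 2 for acute 7 d and -0.94 without acute 24 h replicate 2 for acute 24 h. The chronic groups had means of 226 ± 47.5, 205 ± 49.7 and 166 ± 49.2 CPM and did not pass against healthy.

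**Figure D2:**
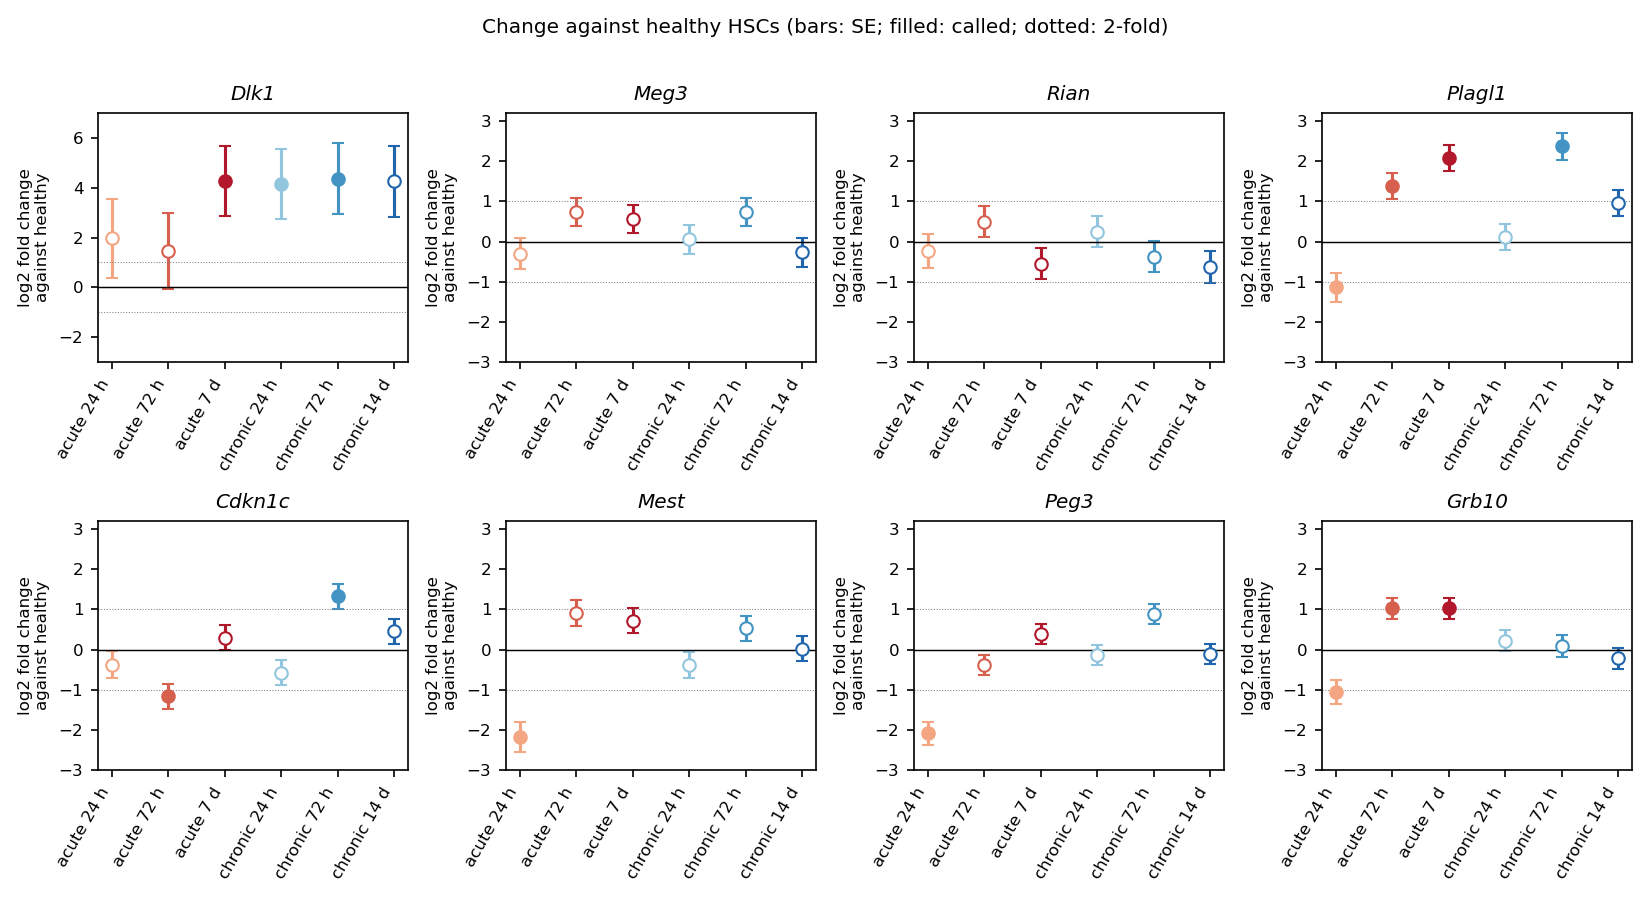
Log2 fold change against healthy (vertical axes, with a wider scale for Dlk1) of the 8 tested imprinted genes in the 6 injury groups, with the SE as bars. Filled points mark calls and dotted lines a 2-fold change. At acute 24 h, 4 genes lay below the lower line and were called, and at chronic 14 d no point was filled.

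Genes were called where the change exceeded 2-fold and the adjusted p lay below 0.05. At acute 24 h 4 genes were called, all lower (Peg3, Plagl1, Mest and Grb10), where 22.0% of all tested genes were called, 12.5% lower and 9.41% higher. Hepatocyte, endothelial and macrophage markers had lower medians there too (122, 97.9 and 168 CPM against 765, 383 and 357 CPM in healthy), and their part in these calls was not tested. Acute 72 h had 3 (Plagl1 and Grb10 higher, Cdkn1c lower), with 12.6% of all genes called, 8.23% higher and 4.33% lower. Acute 7 d had 3 higher (Dlk1, Plagl1 and Grb10), with 14.9% of all genes called, 9.23% higher and 5.64% lower. Chronic 24 h had 1 (Dlk1 higher), with 19.3% of all genes called, 11.2% higher and 8.11% lower. Chronic 72 h had 3 higher (Dlk1, Plagl1 and Cdkn1c), with 12.1% of all genes called, 7.88% higher and 4.2% lower. Dlk1, counted at acute 7 d, chronic 24 h and chronic 72 h, passed the filter on low counts only through injury libraries. These Dlk1 calls were also lost when single healthy libraries were left out. Chronic 14 d had 0 called by edgeR, with 5.72% of all genes called, 4.55% higher and 1.17% lower. At an adjusted p below 0.1 it had 1, and DESeq2 called 2, while Dlk1 and Plagl1 had unadjusted p values of 0.00634 and 0.00677. The median log2 fold change of the 8 genes was -0.72 at acute 24 h, 0.82 at acute 72 h, 0.64 at acute 7 d, 0.09 at chronic 24 h, 0.82 at chronic 72 h and -0.04 at chronic 14 d, where the medians of all genes lay between -0.12 and 0.01. Groups did not overlap with healthy for 39.8%, 23.6% and 24.6% of all genes at acute 24 h, 72 h and 7 d, and for 26.4%, 21.1% and 13.3% at chronic 24 h, 72 h and 14 d. These comparisons share the healthy libraries.

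First and repeated injury were compared at 24 h. Chronic 24 h HSCs had more Peg3 (log2 fold change 1.96 ± 0.29, edgeR adjusted p = 3.6e-05), Mest (1.81 ± 0.37, 0.000998), Grb10 (1.28 ± 0.30, 0.00348) and Plagl1 (1.26 ± 0.36, 0.0143) than acute 24 h HSCs, which is 4 called genes, where 10.9% of all genes were called higher. Libraries of the 2 groups did not overlap for these 4 genes, as for 33.2% of all genes. The Plagl1 call was lost without acute 24 h replicate 1, at 1.16. Cdkn1c (-0.20 ± 0.34, adjusted p = 0.728), Meg3 (0.35 ± 0.38, 0.555) and Rian (0.48 ± 0.42, 0.461) did not pass, and neither did Dlk1 (adjusted p = 0.261).

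Within the acute course, 7 d against 24 h gave 4 higher genes, Plagl1 (3.22 ± 0.39), Mest (2.91 ± 0.38), Peg3 (2.48 ± 0.29) and Grb10 (2.09 ± 0.31), with edgeR adjusted p values from 8.7e-07 to 1.5e-05 and 17.8% of all genes called higher. Within the chronic course, 14 d against 24 h gave 1, Cdkn1c (1.03 ± 0.31, adjusted p = 0.0195), with 6.65% of all genes called higher. This call was lost with depth class as a term (0.85) and without chronic 24 h replicate 2, 3 or 4 or chronic 14 d replicate 1 or 2 (0.87 to 0.96).

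Steps between neighbouring times were added after the data had been seen. From acute 24 h to 72 h, Mest (3.09 ± 0.39), Plagl1 (2.53 ± 0.38), Grb10 (2.09 ± 0.31) and Peg3 (1.70 ± 0.28) rose (11.2% of all genes called higher), and from acute 72 h to 7 d Cdkn1c rose (1.46 ± 0.32, edgeR adjusted p = 0.00358, 5.08% of all genes called higher). From chronic 24 h to 72 h, Plagl1 (2.25 ± 0.34), Cdkn1c (1.90 ± 0.32) and Peg3 (1.02 ± 0.25) rose (4.72% of all genes called higher), and Peg3 fell under 2-fold without chronic 72 h replicate 3, at 0.71. It also did so without chronic 24 h replicate 1 (0.98) or 4 (0.96) and with replicate number as a term (0.99). From chronic 72 h to 14 d, Plagl1 (-1.41 ± 0.33, edgeR adjusted p = 0.0257) and Peg3 (-1.0 ± 0.25, 0.0423) fell, where 0.645% of all genes were called lower. Depth was low in the whole chronic 14 d group, and with depth class as a term neither gene was called (-1.03 and -0.90). The Plagl1 call was also lost without chronic 72 h replicate 3 or 4 or chronic 14 d replicate 1, 2 or 4 (-1.54 to -1.19). The Peg3 call was lost without chronic 72 h replicate 1 or 3 or chronic 14 d replicate 1, 2 or 4 (-1.03 to -0.69).

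The step from 24 h to 72 h was then compared between courses, as a difference of log2 fold changes (chronic minus acute) in the same model. It was 2.69 ± 0.46 for Cdkn1c (edgeR adjusted p = 0.000501), whose step was -0.78 ± 0.33 in the acute (adjusted p = 0.0959, not called) and 1.90 ± 0.32 in the chronic course. It was -2.22 ± 0.41 for Grb10 (adjusted p = 0.000945), with 2.09 in the acute and -0.14 in the chronic course, and -2.19 ± 0.48 for Mest (adjusted p = 0.00414), with 3.09 and 0.90. These 3 of 8 genes passed, with 2.28% of all genes called higher and 6.46% lower. Plagl1, which rose in both courses, did not pass (-0.28 ± 0.47, adjusted p = 0.789), and neither did Peg3 (-0.68 ± 0.37, 0.263). With the libraries of higher depth alone the values were 3.31, -2.20 and -2.15 for Cdkn1c, Grb10 and Mest, all called.

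**Figure D3:**
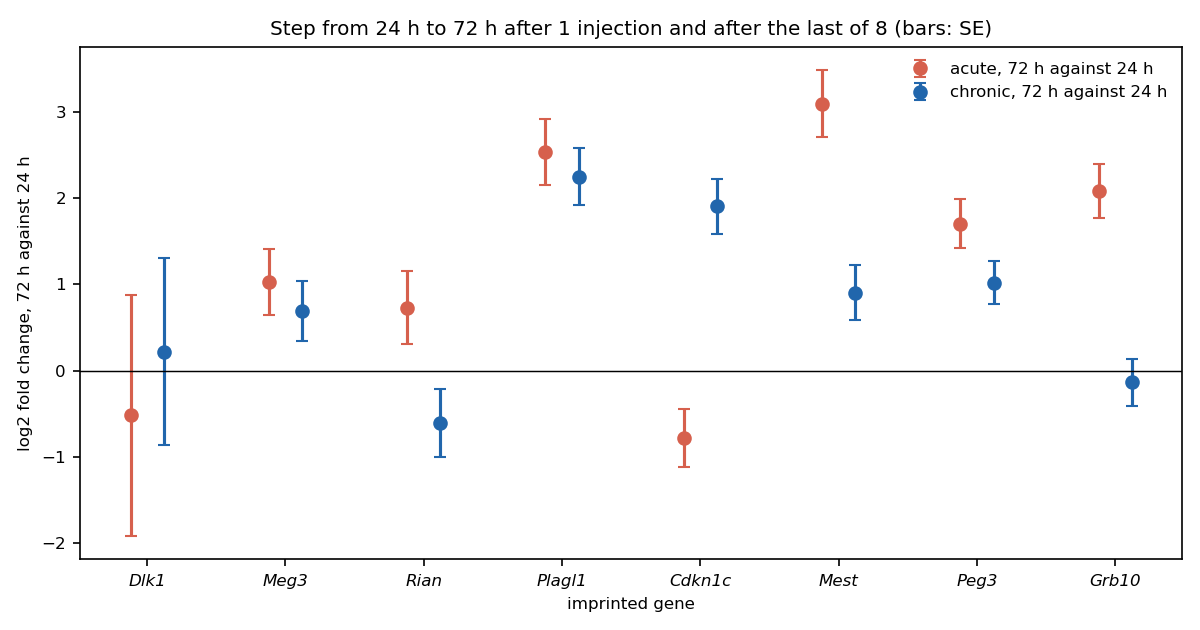
Log2 fold change from 24 h to 72 h (vertical axis) of the 8 tested imprinted genes in the acute (red) and the chronic course (blue), with the SE as bars. For Cdkn1c the acute point lies at -0.78 and the chronic at 1.90, while for Grb10 the order is the other way round (2.09 and -0.14).

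Some genes outside the group had nearly the same course over the 7 group means of log2 CPM, measured as the root mean square difference after centring. Adamts5 (a secreted protease that cleaves proteoglycans) lay closest to Mest, at 0.11, Gm13410 closest to Grb10 at 0.15 and Gm47311 closest to Cdkn1c at 0.17. The closest to Dlk1 was Treml2 (0.19) and to Plagl1 Gm8883 (0.26). The second closest were Chst10 (0.19), E2f2 (0.21), Gm16559 (0.19), Prr33 (0.22) and Sesn3 (0.27), in the same order of imprinted genes. The centred means of these 5 imprinted genes themselves had root mean squares from 0.65 (Grb10) to 1.13 (Plagl1). Several of the close genes were near the floor. Gm16559, Gm8883 and Prr33 fell to a mean log2 CPM of -2.40 in at least 1 group. Treml2 reached at most 0.05 and Gm47311 at most 0.83. The courses of these genes rest on few counts.

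Of 34 other imprinted genes, 28 were tested. Against healthy, 1 was higher and 8 lower at acute 24 h, 2 and 4 at acute 72 h, 2 and 4 at acute 7 d, 1 and 9 at chronic 24 h, 2 and 7 at chronic 72 h, and 1 and 1 at chronic 14 d. Over all genes, 9.41% were called higher and 12.5% lower at acute 24 h, 8.23% and 4.33% at acute 72 h, 9.23% and 5.64% at acute 7 d, 11.2% and 8.11% at chronic 24 h, 7.88% and 4.2% at chronic 72 h, and 4.55% and 1.17% at chronic 14 d. Nnat, a paternally expressed gene of a small membrane protein, rose from 0.78 to 5.30 CPM in healthy to 42.5 to 84.5 in acute 72 h, 39.7 to 68.8 in acute 7 d and 14.1 to 36.2 CPM in chronic 72 h libraries (log2 fold changes 4.17, 3.91 and 2.80). Zim1, a zinc finger gene next to Peg3, stood at 4.14 to 5.73 CPM in chronic 72 h against at most 0.45 CPM in healthy libraries (log2 fold change 5.36, edgeR adjusted p = 8.2e-05), and was also called higher in acute 7 d, chronic 24 h and chronic 14 d HSCs. Like Dlk1, Zim1 passed the filter on low counts only through injury libraries. Its tests are thus of a gene that was kept because of the groups where it was high. Ndn, a paternally expressed gene known to restrain growth, was called lower in acute 24 h (-1.58), chronic 24 h (-2.14), chronic 72 h (-1.21) and chronic 14 d HSCs (-1.16). Airn was called lower in every injury group but chronic 14 d, and Zrsr1 in acute 72 h, acute 7 d, chronic 24 h and chronic 72 h HSCs.

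**Figure D4:**
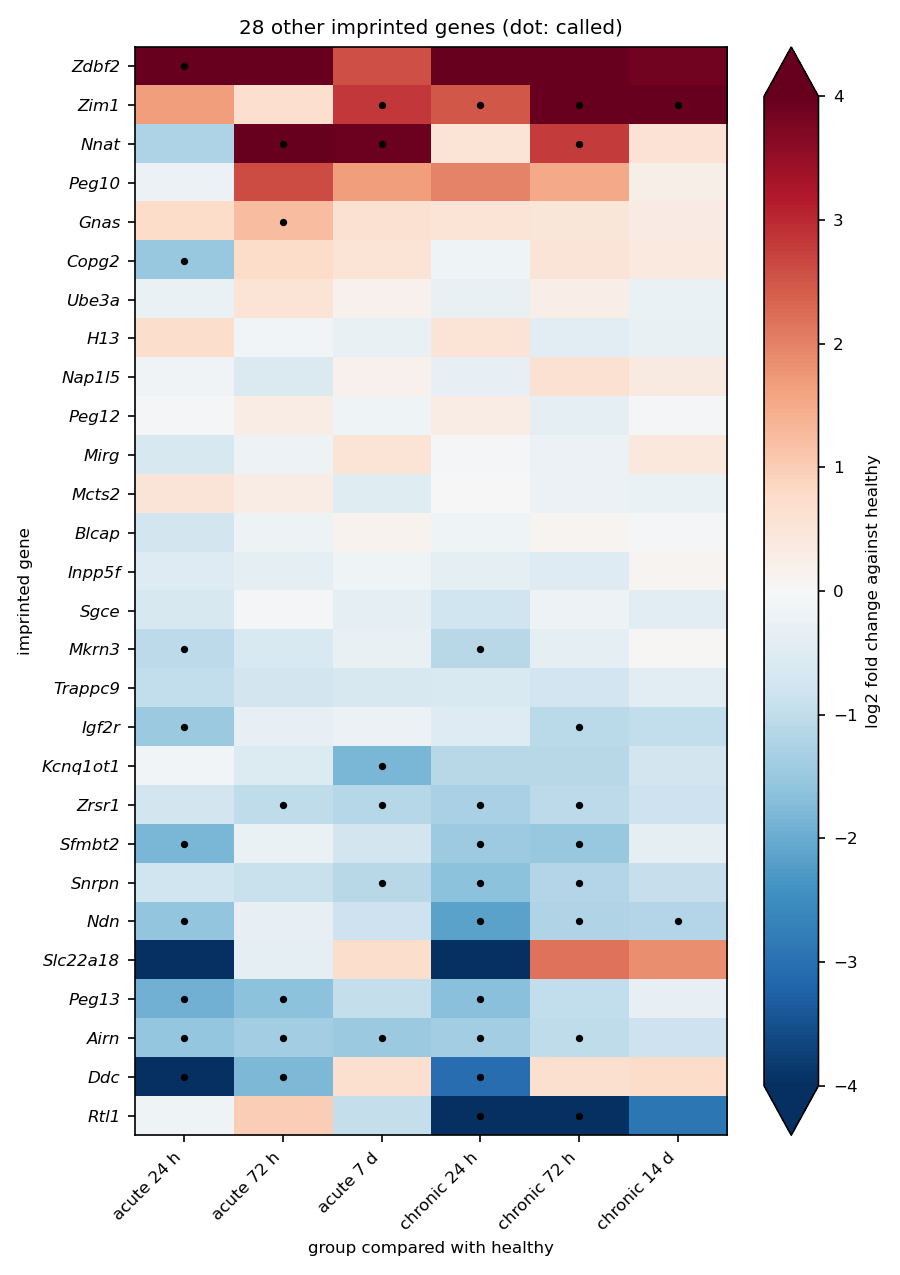
Log2 fold change against healthy (colour, cut at -4 and 4) of 28 other imprinted genes (rows, by mean change) in the 6 injury groups (columns), with a dot for each call. Nnat was called in acute 72 h, acute 7 d and chronic 72 h. Ndn was called lower in 4 of the 6 groups and Airn in all but chronic 14 d.

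The other 2 lists bear on the same genes. Against healthy, 22.0%, 12.6% and 14.9% of all genes were called at acute 24 h, 72 h and 7 d. At chronic 24 h, 72 h and 14 d it was 19.3%, 12.1% and 5.72%. Of 6 receptors and mRNA binders of insulin-like growth factor 2, 5 were tested, and 2, 0, 1, 2, 1 and 0 were called in this order of groups. Igf2r, the receptor that clears IGF2, was lower at acute 24 h (-1.47 ± 0.26) and chronic 72 h (-1.09 ± 0.24), and Igf2bp2, an mRNA binder, higher at acute 24 h (1.69 ± 0.21) and chronic 24 h (1.30 ± 0.20). Insr, the insulin receptor to which GRB10 binds, was lower at acute 7 d (-1.09 ± 0.31) and chronic 24 h (-1.16 ± 0.31). Of 12 factors of imprint maintenance and insulation, 11 were tested, and 2, 2, 2, 3, 2 and 1 were called in the same order of groups. Zfp57, a zinc finger protein that protects methylation at imprinted control regions, was higher in all 6 injury groups, from 0.560 CPM in healthy to between 2.68 CPM in chronic 14 d and 12.0 CPM in chronic 24 h HSCs (log2 fold changes from 2.21 to 4.37, adjusted p at most 0.0300). At this healthy level Zfp57 could not pass the filter on low counts through healthy libraries alone. It was thus kept because of injury libraries, where it was high. Uhrf1, which brings the maintenance methyltransferase to replicating DNA, was higher at acute 24 h, acute 72 h, acute 7 d and chronic 24 h (log2 fold changes from 1.47 to 3.75). Smc3, a cohesin subunit, was lower at chronic 24 h (-1.33 ± 0.20) and chronic 72 h (-1.14 ± 0.20), and the other 8 tested were not called against healthy.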

How the data were processed

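RNA of sorted HSCs was sequenced in 27 libraries (75 bp single-end reads, NextSeq 500). The authors checked reads with FastQC, mapped them with STAR to GRCm38.p6 and used StringTie, and deposited raw counts per Ensembl gene, with no normalisation. Tool versions, the strand setting, the annotation release and how the counts were made are not given in the sources used here, and a strand-blind count would mix overlapping genes.

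From these counts, symbols were taken from GENCODE M21 (105 of 53379 IDs had none), 16198 genes had no count in any library, and edgeR 4.0.16 (R 4.3.3, limma 3.58.1) fitted 1 quasi-likelihood model with a mean per group to all libraries (TMM scaling, filterByExpr). A call needed a Benjamini-Hochberg adjusted p below 0.05 over 18758 genes and a change above 2-fold, and the test over 7 groups had no fold minimum. CPM are per 1000000 of the scaled total, and the SE is the log2 fold change divided by the root of the F statistic. H19 and Igf2, which failed the filter, were tested by permutation over libraries and by edgeR without the filter (37181 genes). Folds against groups without reads used a floor of 3 counts over the group and took the counts of the other group as observed. Ratios of low counts have exact 95% intervals, which cover counting error only. Total counts per library were 10.8 to 12.6 M in healthy, 11.8 to 12.3 M, 11.2 to 12.6 M and 11.6 to 13.1 M in acute 24 h, 72 h and 7 d, and 6.95 to 13.0 M, 6.52 to 13.0 M and 6.31 to 7.44 M in chronic 24 h, 72 h and 14 d. Alternatives were DESeq2 1.42.0 and its size factors, other filters and thresholds, a replicate block, depth class as a term, higher-depth libraries alone, the compared groups alone and each library left out.

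The 10 genes and the lists were chosen with earlier results of these data known. Named with values were the 10 genes, the 2 genes closest in course to each of those called in a comparison of the design (those for Peg3 are not reported here), and genes of the lists and markers. The 4 steps between neighbouring times, the difference of steps and the tests of H19 and Igf2 were added after the data had been seen. Scripts were tested on simulated data and run with Python 3.11.15, pandas 2.3.3, numpy 2.4.6, scipy 1.17.1 and matplotlib 3.10.9. Sequences came from RefSeq (GRCm38.p6).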

Additional observations from a re-analysis of the deposited data

Results flagged for a closer look

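Single libraries stood apart from the other 3 of their group in 7 of 57 tests of the 10 genes by group. The rule was a gap to the nearest library above the Dixon 95% limit for 4 samples. That limit assumes continuous values, so its error rate does not hold for low counts. Where 3 libraries are at 0 and 1 is not, the gap passes the limit by construction. Healthy replicate 3 held 0.0842 CPM of H19 and 0.168 CPM of Dlk1 where the others were at 0. Healthy replicate 2 held 3.02 CPM of Igf2 against 0.272, 0.421 and 0.606 CPM in the others. Igf2 was at 0 in chronic 72 h replicate 3 and in chronic 14 d replicate 3, where the others lay between 0.131 and 0.157 CPM, which is 1 or 2 reads. Acute 72 h replicate 4 held 0.541 CPM of Dlk1 where the others were at 0. Chronic 72 h replicate 3 held 279 CPM of Grb10 against 173 to 184 CPM.

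The change from 24 h to 72 h differed between the chronic and the acute course in a test of the difference (edgeR, chronic minus acute, on the log2 scale) by 2.69 for Cdkn1c (adjusted p = 0.000501), -2.22 for Grb10 (adjusted p = 0.000945) and -2.19 for Mest (adjusted p = 0.00414).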

How the results depend on the processing

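Of 36 calls of single genes, 292 of 312 values under other settings stayed past the threshold and 20 did not, and with 1 library left out 252 of 293 stayed and 41 did not, with 0 reversals in either. The number of called genes in chronic 24 h against healthy (1) was 0 with a filter at a mean of 1 CPM, which Dlk1 does not pass, and with the 2 groups alone. In chronic 14 d against healthy (0) it was 1 at an adjusted p of 0.1, with library size alone and with depth class as a term, and 2 in DESeq2. In chronic 14 d against chronic 24 h (1) it was 2 with library size alone and 0 with the 2 groups alone. In acute 7 d against acute 72 h (1) it was 2 at an adjusted p of 0.1, with no fold minimum and with no filter, the last because H19 then entered. In chronic 14 d against chronic 72 h (2) it was 1 with DESeq2 size factors, library size alone, a filter at 1 CPM, the replicate block and DESeq2, and 0 with depth class as a term and the 2 groups alone. Where not stated, the cause was not tested.

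With 1 library left out, the number of called genes ranged from 3 to 4 in acute 24 h, 2 to 3 in acute 72 h, 1 to 3 in acute 7 d, 0 to 2 in chronic 24 h, 2 to 4 in chronic 72 h and 0 to 1 in chronic 14 d against healthy. It ranged from 4 to 6 in acute 7 d against acute 24 h, 0 to 1 in chronic 14 d against chronic 24 h, 3 to 4 in chronic 24 h against acute 24 h, 4 to 5 in acute 72 h against acute 24 h, 1 to 2 in acute 7 d against acute 72 h, 2 to 5 in chronic 72 h against chronic 24 h, 0 to 2 in chronic 14 d against chronic 72 h and 5 to 8 over the 7 groups, and stayed at 3 for the difference of steps.

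Replicate numbers were not taken to pair the libraries, by a rule that asked for every pair above 0.1. A single pair below 0.1 breaks this rule, so it cannot decide on a weaker link between libraries of the same number. Deviations correlated above 0.1 in 15 of 78 pairs with the same number (range -0.172 to 0.190, median 0.0135). The same held in 16 of 234 pairs with different numbers (median -0.0031), and 10 of 27 libraries correlated best with their own number. A shared effect of replicate number was not tested beyond the replicate block. With the replicate block the count was 2 in place of 3 in acute 72 h against healthy and in chronic 72 h against chronic 24 h, 1 in place of 2 in chronic 14 d against chronic 72 h and 6 in place of 7 over the 7 groups, with the same count elsewhere. With the longest transcript as length, Grb10 stood at 48.2, Peg3 at 6.18 and Rian at 0.357 CPM per kb. The mean of H19 was 0.742 to 0.954 CPM in acute 7 d and 0.528 to 0.646 CPM in chronic 72 h with 1 library left out. At these depths H19, Igf2 and Dlk1 rest on a few reads per library.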
